A study of Mus musculus with 12 samples.

Results

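The 10 genes described here encode alpha tubulins (Tuba1a, Tuba1b, Tuba1c, Tuba4a) and beta tubulins (Tubb2a, Tubb2b, Tubb3, Tubb4b, Tubb5, Tubb6). They were chosen by symbol among the 9112 genes listed in both deposited count tables, of 9112 genes listed for Cre+ and 14177 for Cre-. All 10 passed the filter on low expression in both genotypes. RNA was sequenced from cultured dorsal root ganglion (DRG) neurons of RiboTag mice, in which the large-subunit ribosomal protein Rpl22 gains an HA epitope in cells with Cre recombinase. Ribosomes are then pulled down with an HA antibody together with the mRNAs they carry. All mice were males of 3 to 6 months by the labels (the study's methods give a younger age), homozygous for the tagged allele (Rpl22HA/HA), and carried Runx3-Cre (Cre+) or were littermates without it (Cre-). Runx3 is active in proprioceptors, the sensory neurons that report muscle stretch, and the Cre- pull-downs were made as a control for background. Neurons of all ganglia from 5 mice per genotype, purified on Percoll, were pooled for each sample and cultured for 24 h on laminin in medium with serum. There were 3 HA pull-downs and 3 inputs per genotype, and each input was 10% of the lysate before the pull-down.

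Alpha and beta tubulin form the heterodimer from which microtubules are built, and neurons need large amounts of both for axon growth. Newly made tubulin is folded by prefoldin and the CCT chaperonin and assembled into dimers by the tubulin cofactors. Tubulin mRNAs are also degraded on the ribosome when free dimers are in excess, through recognition of the first residues of the nascent chain by Ttc5. Tuba1a is the main alpha tubulin of neurons after the last division, Tubb3 is the neuronal beta tubulin and the antigen of the TUJ1 antibody, and Tubb5 and Tuba1b are expressed in most cell types. The study's methods used Tubb3 as the reference gene of an expression assay on pull-downs and inputs.

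Stretches of coding sequence show what the members share and where they differ (GENCODE M21 on GRCm38, which is mm10). The first 30 coding bases of one alpha and one beta tubulin are given because the nascent chain made from them is what Ttc5 reads. Capitals mark the first 4 codons. Tuba1a lies on the minus strand at chr15:98949847-98953501, with an intron inside these bases, and Tubb3 on the plus strand at chr8:123411553-123422015.
Tuba1a, first coding bases: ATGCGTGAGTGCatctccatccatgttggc
Tubb3, first coding bases: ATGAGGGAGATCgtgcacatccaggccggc

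The last 60 coding bases of Tuba1c and Tuba4a encode the tail that is modified on assembled microtubules, and are given because the tails end differently. Capitals mark the last codon before the stop codon. It is a tyrosine codon in Tuba1c, for a residue that is removed and put back in cells, and a glutamate codon in Tuba4a. The stretches lie at chr15:99037950-99038009 (plus strand) and chr1:75215622-75215681 (minus strand).
Tuba1c, last coding bases: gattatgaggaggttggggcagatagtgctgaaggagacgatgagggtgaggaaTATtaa
Tuba4a, last coding bases: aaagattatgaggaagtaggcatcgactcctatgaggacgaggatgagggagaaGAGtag

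Tubb2a and Tubb2b are neighbours on the minus strand of chromosome 13, and their last 60 coding bases, at chr13:34074468-34074527 and chr13:34127471-34127530, differ at the 3 bases in capitals. They are shown because the pull-downs labelled Cre- separated these near-identical genes.
Tubb2a, last coding bases: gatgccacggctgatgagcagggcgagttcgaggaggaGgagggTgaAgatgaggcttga
Tubb2b, last coding bases: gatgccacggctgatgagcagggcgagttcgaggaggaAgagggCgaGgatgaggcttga

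Aligned coding sequences were 98.3% identical between Tuba1a and Tuba1b, 97.1% between Tuba1a and Tuba1c, and 96.5% between Tubb2a and Tubb2b. Tuba4a was 84.7% to 85.2% identical to the other alpha tubulins. Identity among the beta tubulins, apart from the Tubb2 pair, was 80.2% to 85.7%. The authors counted uniquely mapped reads of 50-base pairs, so reads from identical stretches could be lost or assigned to a copy. Of all 50-base windows of its transcript, Tuba1b shared 83.1% with transcripts of other genes or pseudogenes, Tuba1a 75.5%, Tuba1c 61.0%, Tubb4b 55.5%, Tubb2a 49.6%, Tuba4a 48.8% and Tubb2b 39.3%. Tubb5 shared 0.1%, and Tubb3 and Tubb6 shared 0%, so the counts of these 3 genes carried the least ambiguity. The windows of Tuba4a were shared with the antisense gene Stk16, which overlaps 48.6% of its exon bases, and reads of both cannot be told apart in counts made without strand; whether the counting used strand is not given in the sources used here. The levels of the other 6 genes, and the split between Tuba1a, Tuba1b and Tuba1c, are uncertain for the same reason. The shares of windows do not measure by how much, since either read of a pair can place the fragment.

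Each library held 8886308 to 18633365 counted fragments. The pull-downs labelled Cre- were the deepest, from 14861795, and each of the other libraries held 13941113 or fewer. Tubulin members took 0.378% to 0.582% of the counts in inputs, 0.161% to 0.264% in Cre+ pull-downs and 0.275% to 0.394% in Cre- pull-downs. Across genes, the pull-downs labelled Cre+ were the least alike (Pearson r of log2 levels 0.687 to 0.829 between libraries, across genes that are not independent replicates), and r was at least 0.915 within each other group. Runx3, which marks the cells that the driver targets, was 2.19 to 23.3 normalized counts (CPM, defined below) in Cre+ pull-downs and 20.1 to 49.9 in Cre- pull-downs, against 1.86 to 5.73 in all inputs. The summed level of the 5 of 6 proprioceptor markers listed in both tables was 371 to 539 in Cre+ pull-downs and 1156 to 1438 in Cre- pull-downs, against 184 to 281 in inputs. Between the pull-downs of both genotypes, Spp1 (log2 difference -3.33, FDR 0.000169) and Etv1 (-2.77, FDR 0.000271) were lower in Cre+, where 9.59% of all genes were lower and 13.6% higher. The other 3 of these 5 did not pass, Runx3 (-1.49, FDR 0.160), Whrn (-0.86, FDR 0.393) and Ntrk3 (0.0069, FDR 0.987). The summed level and the 2 markers that passed go against the labels, since the Cre- pull-downs were made as background, so the libraries are named below by the genotype they are labelled with. Apart from punctuation, the pull-down columns in the table of Cre+ carry the same names as the Cre- pull-down titles, and they were assigned by the table that their labels name. An exchange of both sets of pull-downs would turn the direction of each comparison between them and put each result of a pull-down against its input with the other genotype, and whether one took place was not tested. Nothing in the labels says that samples came from separate cultures beyond the pooling, so the tests measure the spread between these samples.

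Levels are normalized counts, in CPM (counts scaled by library size and TMM factors over all 12 libraries), and levels of different genes are compared only per kb of transcript. Tuba1a had by far the highest level per kb among the 10 genes in every group, at 1237 ± 294 (SD, n = 3) in Cre+ inputs, 967 ± 208 in Cre- inputs, 660 ± 202 in Cre+ pull-downs and 890 ± 184 in Cre- pull-downs. In no group did its libraries overlap those of the next gene. In Cre+ inputs it was followed by Tubb3 (220 ± 7.67), Tubb5 (200 ± 11.3), Tubb2a (187 ± 14.4) and Tuba1b (178 ± 48.3), of which Tubb5, Tubb2a and Tuba1b overlapped their neighbours in the order. Then came Tuba1c (112 ± 24.9) and Tubb4b (108 ± 20.1), whose libraries overlapped, Tubb6 (60.8 ± 11.4) and Tubb2b (59.2 ± 1.34), which also overlapped, and Tuba4a (13.5 ± 1.29). The order was the same in Cre- inputs. In Cre+ pull-downs all neighbours from Tubb5, in second place at 108 ± 25.7, down to Tubb2b at 50.4 ± 36.1 overlapped, and Tuba4a was again lowest at 14.6 ± 3.38. In Cre- pull-downs Tuba1b stood second (225 ± 41.7) and Tubb2b last (18.0 ± 1.63), with a range that overlapped that of Tuba4a (20.0 ± 7.51).

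**Figure D1:**
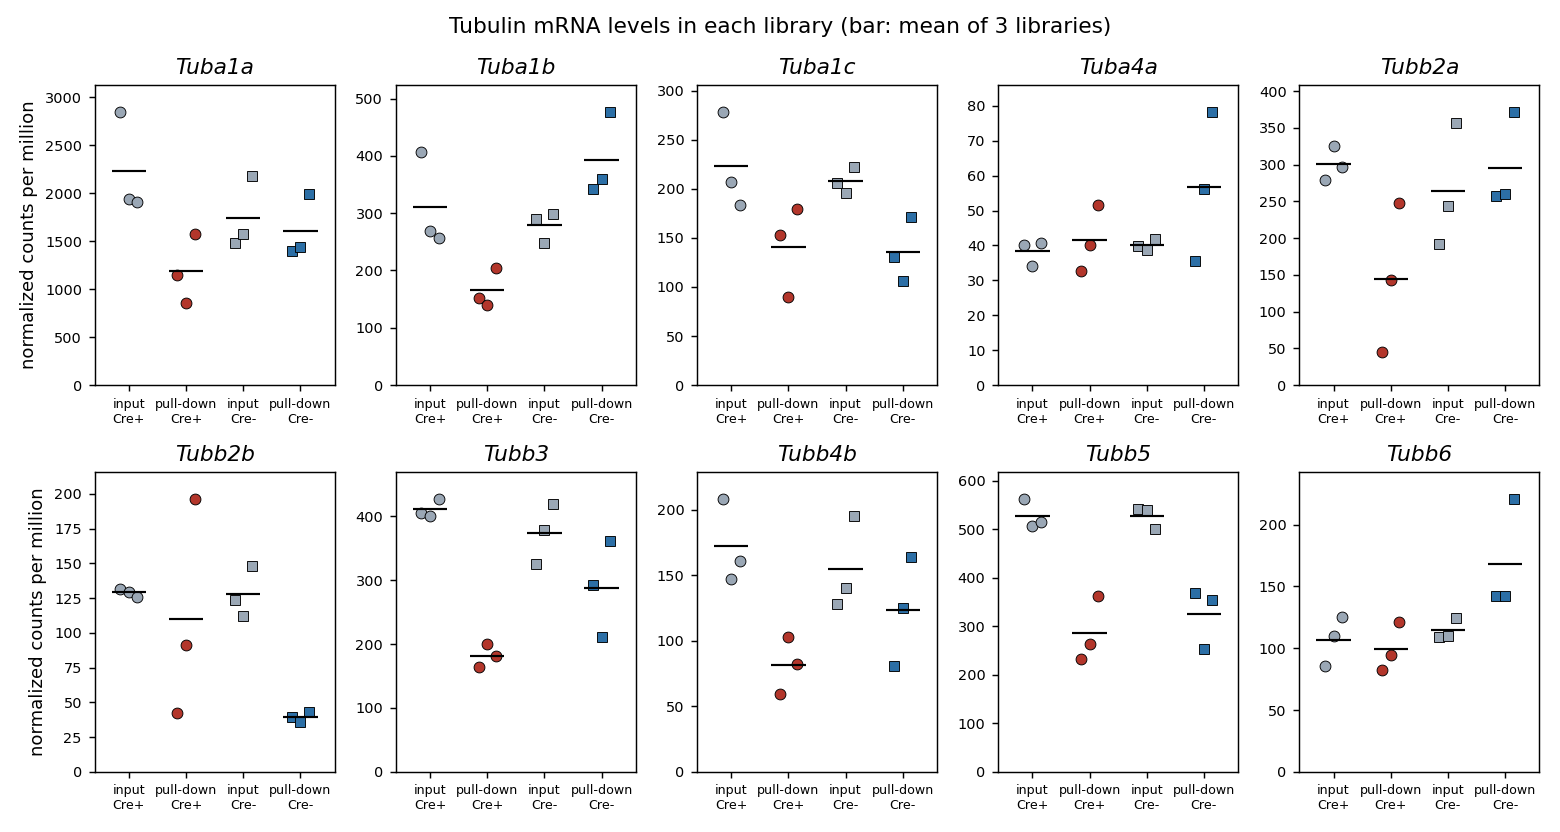
Normalized counts in CPM (y axis, linear from 0, a separate scale for each gene) of the 10 tubulin genes in the 3 libraries of each group; points are libraries and horizontal lines are group means. Tubb3 and Tubb5 sit below the inputs in all 3 pull-downs labelled Cre+, and Tubb2b lies between 35.7 and 42.8 in the pull-downs labelled Cre- against 112 to 148 in their inputs.

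Tubb3 and Tubb5 were lower in the Cre+ pull-downs than in their inputs, by 2.29-fold and 1.86-fold, and no tubulin was higher. These were 2 of 10 members at a false discovery rate (FDR) below 0.1 in edgeR's quasi-likelihood test, where 2.59% of the 8947 genes tested were lower and 5.39% higher. The count of 0 higher members was also 0 at an unadjusted p under 0.05 and in DESeq2. The members' median log2 difference was -0.91, against 0.076 over all genes tested. In 7 of the 10 every pull-down lay below every input, as it did for 17.5% of all genes, and in 0 of the 10 every pull-down lay above, as for 15.7% of all genes. In these bulk samples, the share of a gene's RNA in tagged cells, its association with ribosomes and the background of the pull-down cannot be told apart.

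For Tubb3, the neuronal beta tubulin, the inputs labelled Cre+ read 405, 401 and 427 normalized counts and the pull-downs 164, 199 and 181. The 2 groups were far apart and each was tight, with a log2 difference of -1.19 (SE 0.25, FDR 0.0471). The call was lost without any one input, at an FDR of 0.190, 0.173 and 0.202 without inputs 1, 2 and 3, while the log2 difference stayed between -1.22 and -1.16. Tubb5, a beta tubulin of most tissues (chr17:35833920-35838301, minus strand), read 563, 507 and 516 in inputs and 233, 263 and 363 in pull-downs. All pull-downs were again below all inputs, with a log2 difference of -0.90 (SE 0.26, FDR 0.0978). This call did not hold without inputs 1, 2 or 3 (FDR 0.315, 0.252 and 0.273) or without pull-down 2 (FDR 0.146), nor in edgeR's exact test (FDR 0.101).

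Tubb4b, a widely expressed beta tubulin that also builds cilia (chr2:25222158-25224702, minus strand), read 208, 147 and 161 in Cre+ inputs and 59.2, 103 and 82.4 in pull-downs. The groups did not overlap, but at a log2 difference of -1.09 (SE 0.33) its FDR was 0.102. It passed in 6 of 14 alternative fits, with an FDR from 0.0248 in the 12-library fit to 0.363 without input 1 over all of them.

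The abundant alpha tubulins showed differences of similar size that did not pass the test. Tuba1a read 2843, 1938 and 1912 in Cre+ inputs and 1145, 850 and 1574 in pull-downs, a log2 difference of -0.92 (SE 0.30, FDR 0.120). Tuba1b (chr15:98931429-98934390, minus strand) read 407, 268 and 256 in inputs and 152, 140 and 204 in pull-downs, also a log2 difference of -0.92 (SE 0.31, FDR 0.120). In both genes all pull-downs were below all inputs, and input 1 stood above the others. Tuba1c, a less abundant alpha tubulin (chr15:99029891-99038105, plus strand), read 278, 207 and 183 in inputs and 153, 90.0 and 179 in pull-downs. Its groups nearly met, at a log2 difference of -0.67 (SE 0.34, FDR 0.262).

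The Tubb2 pair varied most between the Cre+ pull-downs. Tubb2a, an abundant beta tubulin of brain (chr13:34074278-34078008, minus strand), read 279, 325 and 297 in inputs and 44.3, 143 and 248 in pull-downs. Its log2 difference was -1.07 (SE 0.51, FDR 0.232), or -0.61 without pull-down 1 and -1.67 without pull-down 3. Tubb2b (chr13:34127008-34130354, minus strand), the beta tubulin of migrating and growing neurons, read 132, 130 and 126 in inputs and 42.4, 91.4 and 196 in pull-downs. Both genes were lowest in pull-down 1 and highest in pull-down 3. For Tubb2b the pull-downs lay on both sides of the inputs, and the log2 difference of -0.25 (SE 0.49, FDR 0.792) turned to 0.17 without pull-down 1 and was -0.93 without pull-down 3.

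Tubb6 and Tuba4a overlapped between the Cre+ groups. Tubb6, a beta tubulin found mainly outside the brain (chr18:67390731-67402749, plus strand), read 85.5, 110 and 125 in inputs and 82.4, 94.5 and 121 in pull-downs, a log2 difference of -0.12 (SE 0.33, FDR 0.863). Tuba4a, an alpha tubulin without a terminal tyrosine codon (chr1:75214972-75221261, minus strand), read 40.0, 34.1 and 40.8 in inputs and 32.6, 40.2 and 51.7 in pull-downs. Its log2 difference of 0.10 (SE 0.46, FDR 0.913) was negative with other scalings, at -0.083 with upper-quartile scaling and -0.33 with library size alone, where the median of all genes was -0.12 and -0.36.

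In the pull-downs labelled Cre-, the tubulins moved in both directions. Tubb2b was 3.20-fold lower than in the inputs, Tubb5 1.59-fold lower and Tuba1c 1.50-fold lower, and Tubb6 was 1.50-fold and Tuba1b 1.43-fold higher. These 3 lower and 2 higher members of 10 stand beside 11.1% lower and 13.0% higher among the 11526 genes tested. In the same 3 members every pull-down lay below every input, and in the same 2 every pull-down lay above, as for 20.2% and 19.4% of all genes. The median log2 difference of the members was -0.20, against -0.04 over all genes.

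Tubb2b read 124, 112 and 148 in Cre- inputs and 39.6, 35.7 and 42.8 in pull-downs. The pull-downs were close to each other and under 50 in all 3 libraries, at a log2 difference of -1.68 (SE 0.18, FDR 0.000251). This result passed at an FDR below 0.1 in all 15 alternative fits, with log2 differences from -1.91 to -1.56. Its neighbour Tubb2a read 191, 243 and 356 in inputs and 257, 260 and 371 in pull-downs, which overlapped at a log2 difference of 0.19 (SE 0.23, FDR 0.623). The ratio of Tubb2a to Tubb2b counts was therefore 6.49 to 8.67 in Cre- pull-downs, against 1.54 to 2.40 in Cre- inputs, 2.12 to 2.51 in Cre+ inputs and 1.05 to 1.56 in Cre+ pull-downs. Each genotype's pull-downs fell outside its own inputs, below them in Cre+ and above them in Cre-.

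Tubb5 read 542, 539 and 501 in Cre- inputs and 369, 254 and 353 in pull-downs. Its groups were separate, at a log2 difference of -0.67 (SE 0.17, FDR 0.0185), and it too passed at an FDR below 0.1 in all 15 alternative fits, with log2 differences from -0.90 to -0.52, but it is under the 2-fold limit tried as another threshold. Tubb5 was thus the one member called lower in both genotypes. Tuba1c read 207, 195 and 222 in inputs and 131, 106 and 171 in pull-downs, all lower, at a log2 difference of -0.59 (SE 0.19, FDR 0.0545). The call on Tuba1c was lost without input 1, 2 or 3 (FDR 0.110, 0.112 and 0.163), without pull-down 2 (FDR 0.200) and with all 12 libraries in one fit (FDR 0.288).

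Both higher members had modest differences. Tuba1b read 290, 247 and 299 in Cre- inputs and 342, 360 and 476 in pull-downs, at a log2 difference of 0.52 (SE 0.17, FDR 0.0565). Its pull-downs all lay above its inputs, but the call was lost without input 1, 2 or 3 (FDR 0.101, 0.194 and 0.111) and without pull-down 2 or 3 (FDR 0.101 and 0.195). Tubb6 read 109, 110 and 124 in inputs and 142, 142 and 221 in pull-downs, at a log2 difference of 0.58 (SE 0.20, FDR 0.0686). That call was lost without input 1, 2 or 3 (FDR 0.163, 0.182 and 0.125) and without pull-down 3 (FDR 0.243). With all 12 libraries in one fit, neither Tuba1b (FDR 0.322) nor Tubb6 (FDR 0.299) passed.

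The other members overlapped between Cre- pull-downs and inputs. By number, each pull-down of Tubb3, Tuba1a and Tubb4b lay below its input, and each pull-down of Tubb2a above it. With a block for the replicate number, none of these passed (FDR 0.171, 0.650, 0.199 and 0.346). Tubb3 read 326, 379 and 419 in inputs and 293, 211 and 361 in pull-downs, a log2 difference of -0.35 (SE 0.20, FDR 0.251). Tuba1a read 1481, 1574 and 2174 in inputs and 1393, 1436 and 1988 in pull-downs, a log2 difference of -0.09 (SE 0.19, FDR 0.776). Each group of Tuba1a held 1 high library, numbered 3 in both. Tubb4b read 128, 140 and 196 in inputs and 80.8, 125 and 164 in pull-downs, at a log2 difference of -0.30 (SE 0.25, FDR 0.458). Tuba4a read 39.8, 38.7 and 41.7 in inputs and 35.6, 56.2 and 78.2 in pull-downs, at a log2 difference of 0.52 (SE 0.27, FDR 0.207). Without pull-down 1, the only one below its inputs, Tuba4a passed at 0.79 (FDR 0.0137).

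**Figure D2:**
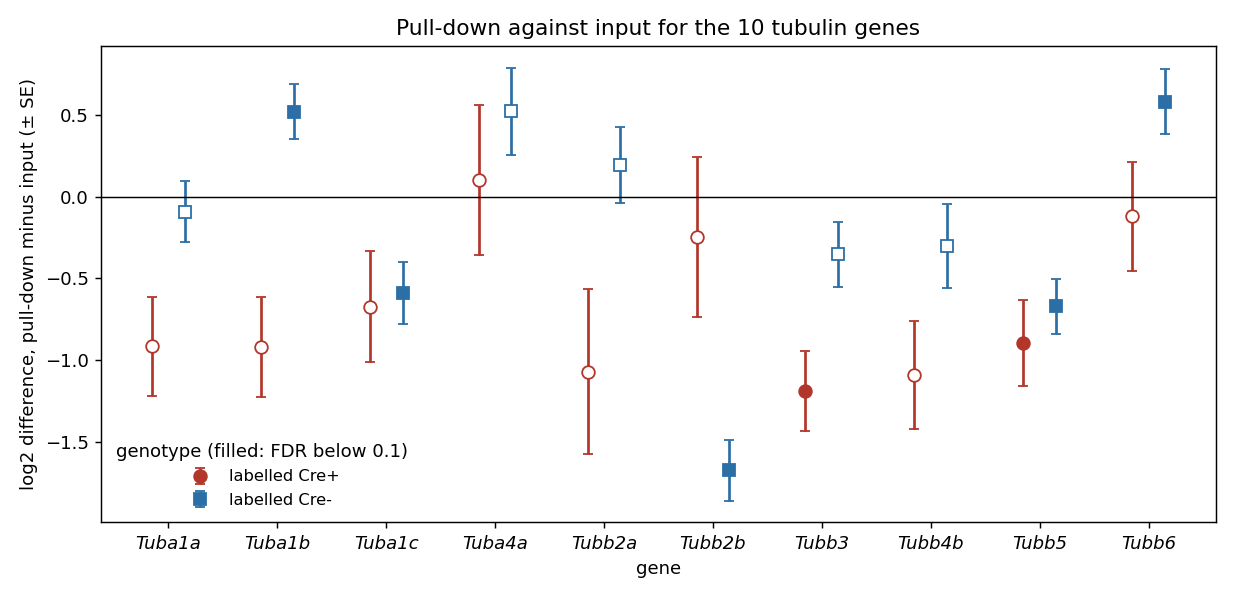
Log2 difference of pull-down minus input (y axis) with its standard error for each tubulin gene (x axis), from the fit of the 6 libraries labelled Cre+ (circles) and the 6 labelled Cre- (squares); filled symbols passed an FDR below 0.1. The circle of Tuba4a alone lies above 0, while 4 squares lie above 0 and Tubb2b is the lowest at -1.68.

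A model of all 12 libraries tested whether the pull-down to input ratio differed between genotypes. Tuba1b alone passed, as 1 of 10 members with a lower pull-down to input ratio in Cre+ than in Cre-, where 2.05% of 8954 genes were lower and 2.26% higher. Its log2 difference of enrichment was -1.40 (SE 0.34, FDR 0.0639). Tuba1b read 140 to 204 in Cre+ pull-downs and 342 to 476 in Cre- pull-downs, which did not overlap, and 247 to 407 in the inputs of both genotypes. The call was lost without Cre+ input 1 (FDR 0.137), without Cre- input 1, 2 or 3 (FDR 0.132, 0.187 and 0.145) and without Cre- pull-down 2 or 3 (FDR 0.128 and 0.185). No member passed in the other direction, with 1 (Tubb2b) at an unadjusted p under 0.05 and 1 in DESeq2. Tubb2b had the largest positive value, 1.47 (SE 0.56, FDR 0.182), which passed in DESeq2 (FDR 0.0888) and without Cre+ pull-down 1 (1.86, FDR 0.0135), and was 0.75 (FDR 0.258) without Cre+ pull-down 3. The differences of Tubb3 (-0.80, SE 0.30, FDR 0.174), Tubb2a (-1.22, SE 0.61, FDR 0.290) and Tuba1a (-0.79, SE 0.36, FDR 0.252) did not pass. That of Tubb2a was -0.79 (FDR 0.209) without Cre+ pull-down 1 and passed at -1.85 (FDR 0.0712) without Cre+ pull-down 3.

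Set directly against the Cre- pull-downs, the Cre+ pull-downs had less Tuba1b (2.38-fold, log2 difference -1.25, FDR 0.00752), less Tubb6 (1.70-fold, -0.76, FDR 0.0632) and less Tubb3 (1.59-fold, -0.67, FDR 0.0513), and more Tubb2b (2.80-fold, 1.48, FDR 0.0298). These 3 lower and 1 higher of 10 members stand beside 9.59% lower and 13.6% higher genes. The Tubb2b libraries overlapped narrowly, at 42.4, 91.4 and 196 in Cre+ and 35.7 to 42.8 in Cre-, and Cre+ pull-down 3 was by far the highest. Without it the log2 difference was 0.76 (FDR 0.0855), and the call was lost without Cre- pull-down 2 (FDR 0.107). The call on Tubb3 was lost without Cre- pull-down 3 (FDR 0.229), and that on Tubb6 without Cre- pull-down 2 or 3 (FDR 0.102 and 0.274). Between the inputs of both genotypes 0 of 10 members and 0 of 8954 genes passed edgeR's test, with 0 members and 18 genes at an unadjusted p under 0.05. That was fewer genes than this threshold gives where no gene differs. The fit shared 1 dispersion per gene over all 12 libraries, among them the Cre+ pull-downs, which were the least alike. The lack of calls therefore does not show that the inputs were equal. The members' log2 differences between inputs ranged from -0.10 (Tubb6) to 0.36 (Tuba1a).

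Summed over the 4 alpha tubulins per kb, the level in Cre+ libraries was 1314 to 1965 in inputs and 611 to 1099 in pull-downs, a log2 ratio of means of -0.88. The 6 beta tubulins summed to 822 to 842 in Cre+ inputs and 306 to 598 in pull-downs, also a log2 ratio of -0.88. Both sums did not overlap between fractions, at an exact two-sided permutation p of 0.1, the smallest that 3 against 3 libraries allow. In Cre- libraries the alpha sum was 1106 to 1504 in inputs and 1048 to 1490 in pull-downs (log2 ratio -0.05, exact p = 0.5), and the beta sum 697 to 896 and 545 to 805 (log2 ratio -0.27, exact p = 0.3). The ratio of the alpha to the beta sum overlapped between Cre+ fractions (1.57 to 2.33 in inputs, 1.34 to 2.65 in pull-downs), and in Cre- was 1.49 to 1.68 in inputs and 1.73 to 1.97 in pull-downs.

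Shares within each family do not depend on how libraries are scaled, but do depend on which genes are summed and on the length each is divided by. Tuba1a made up 80.3% ± 0.397 (SD, n = 3) of the alpha sum in Cre+ inputs and 78.3% ± 1.17 in Cre+ pull-downs, and 77.3% ± 2.94 and 73.9% ± 0.144 in Cre-. Tuba1b held 13.0% ± 1.85 of the alpha sum in Cre- inputs and 18.8% ± 0.433 in Cre- pull-downs, a difference of 5.76 points with no overlap, and was 11.5% in both Cre+ fractions. Among beta tubulins, Tubb6 had a larger share in the pull-downs of both genotypes, 12.9% ± 2.10 against 7.30% ± 1.39 in Cre+ and 14.6% ± 1.12 against 8.35% ± 0.516 in Cre-, with every pull-down above every input. Tubb2b held 2.81% ± 0.324 of the beta sum in Cre- pull-downs against 7.50% ± 0.701 in their inputs, while Tubb2a held 28.2% ± 1.66 against 20.5% ± 3.87. All these separations had an exact two-sided permutation p of 0.1, the smallest possible, and an adjusted p over the 10 genes of 0.333 in Cre+ and 0.167 in Cre-, so none could pass. In Cre- the differences were 7.64 points for Tubb2a, -4.69 for Tubb2b and 6.25 for Tubb6. Divided by the windows found in no other gene in place of length, they were 9.79, -5.58 and 4.15 points, and that of Tuba1b was 7.31. The share of Tubb3 overlapped between fractions in both genotypes, from 16.2% to 28.6% over all libraries.

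**Figure D3:**
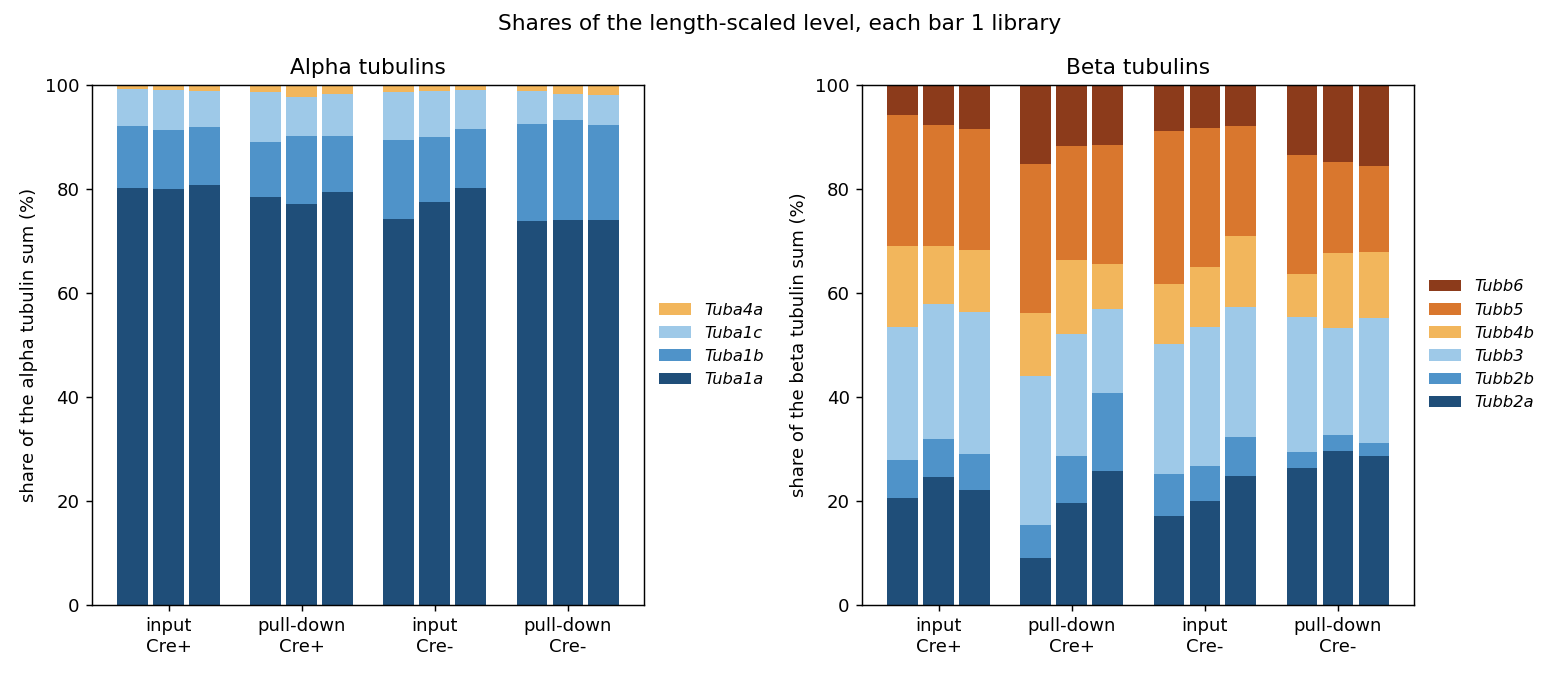
Share (y axis, percent) of each gene in the summed level per kb of the 4 alpha tubulins (left) and the 6 beta tubulins (right); each bar is 1 library and bars are grouped by fraction and genotype. Tuba1a fills 73.7% to 80.7% of every alpha bar, and Tubb2b is thinnest in the pull-downs labelled Cre-, at 2.44% to 3.00%.

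The genes with the levels most like those of Tubb3 over the 12 libraries, by the root-mean-square (RMS) difference of centred log2 levels, were Canx, Golt1b, Ccdc47, Serinc3 and Rab1, at 0.17 to 0.20, against a median of 0.80 over all genes. Tubb5 was the nearest tubulin, at 0.25 and rank 17 of 8953 genes, followed by Tubb4b (0.29, rank 46) and Tuba1a (0.33, rank 154). For Tuba1a the nearest genes were Hagh, Sec22b, Tspan13, Gabarapl1 and Isca1, at 0.19 to 0.23, and Tuba1c was the nearest tubulin at 0.25 and rank 17. Tubb2b was far from both, at 0.81 and 0.79, close to the median gene. These are descriptions over libraries that share their group means.

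Transcript length went together with the difference between pull-down and input over all genes. In Cre+, the median log2 difference was -1.02 for genes with transcripts under 1.5 kb, -0.47 from 1.5 to 3 kb, 0.10 from 3 to 5 kb and 0.78 above 5 kb. In Cre- the medians were -0.42, -0.18, 0.02 and 0.29. All 10 tubulin transcripts, at 1.60 to 2.84 kb, belong to the class from 1.5 to 3 kb, so the members' medians of -0.91 (Cre+) and -0.20 (Cre-) stand beside -0.47 and -0.18 in genes of like length. Its part in the tubulin results was not tested. A further feature of the pull-downs was Map1b, a long microtubule-associated transcript, which alone took 6.63% to 13.3% of Cre+ pull-down counts and 3.78% to 7.73% in Cre- pull-downs, against 1.44% to 2.37% in inputs. With Map1b and Rn45s left out before scaling, Tubb3 kept its call (-1.16, FDR 0.0480) and Tubb5 in Cre+ did not (-0.87, FDR 0.102).

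**Figure D4:**
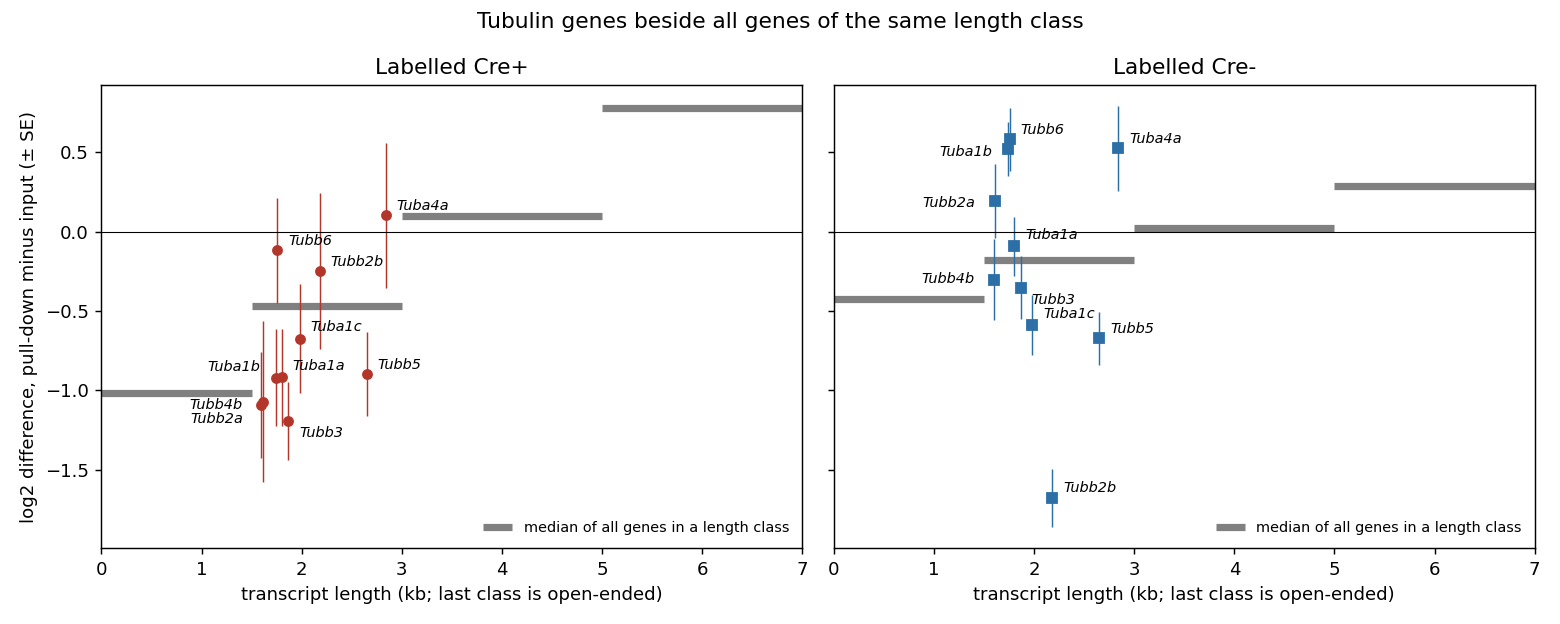
Log2 difference of pull-down minus input with its standard error (y axis) against transcript length in kb (x axis) for the 10 tubulin genes, in libraries labelled Cre+ (left) and Cre- (right); grey bars are medians over all genes of a length class. The class from 1.5 to 3 kb, which holds all members, has a median of -0.47 in Cre+ and -0.18 in Cre-, and Tubb2b lies far below it in Cre-.

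Scaling also moved the balance of calls over all genes. In Cre+, 67.5% of all calls were higher with TMM, 48.1% with upper-quartile scaling and 21.6% with library size alone, and in Cre- 53.9%, 50.4% and 28.1%. For the difference of enrichments the shares were 52.3%, 29.3% and 20.9%, and between pull-downs 58.6%, 42.2% and 36.5%. Library size alone put the median of all genes at -0.36 in Cre+ and -0.27 in Cre-. All genes moved together under this scaling. Tuba1b in Cre- read 0.28 (FDR 0.248) and Tubb6 0.34 (FDR 0.239), past the threshold in neither case, but both stood about as far above the median of all genes as with TMM (0.55 and 0.62, against 0.56 and 0.62). Relative to the median, Tubb3 in Cre+ was at -1.27 and Tubb2b in Cre- at -1.64 with both scalings.

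Cell type markers were measured beside the tubulins, and their counts stand beside 13.0% higher and 11.1% lower of all genes in Cre- and 5.39% and 2.59% in Cre+. The 8 neuronal markers summed to 20490 to 23559 in Cre+ pull-downs and 19784 to 26863 in Cre+ inputs, but to 43855 to 50839 in Cre- pull-downs against 21955 to 26782 in Cre- inputs. The most abundant markers set these sums, to which Rbfox3 (161 to 326 over all libraries) and Uchl1 (122 to 745) added little. In Cre-, 4 of these 8 markers were higher and 1 lower (Rbfox3, -0.76, FDR 0.00583), with the smallest FDR among the higher ones for Nefm (log2 difference 1.29), Snap25 (1.17) and Nefl (0.89), and in Cre+ only Uchl1 passed (-1.85). Of the proprioceptor markers, all 6 were higher in Cre-, with the smallest FDR for Pvalb (2.98), Ntrk3 (2.05) and Spp1 (2.68), and in Cre+ 1 of 5 tested was higher (Ntrk3, 2.19). Spp1 (-3.59) and Etv1 (-2.41) differed between both enrichments. So did 5 of the 8 neuronal markers, where 2.05% of all genes were lower and 2.26% higher. Snap25 (-1.76, FDR 0.0189), Uchl1 (-1.95, FDR 0.0206), Nefl (-0.83, FDR 0.0778) and Nefm (-0.79, FDR 0.0977) were lower in Cre+, and Rbfox3 was higher (1.02, FDR 0.0724). Between the pull-downs 5 of these 8 were lower in Cre+ and 1 higher, where 9.59% of all genes were lower and 13.6% higher. Their part in the differences of Tuba1b and Tubb3 between genotypes was not tested. In the Cre- pull-downs Tubb3 stood at -0.35, which did not pass. The 5 of 8 glial markers listed in both tables summed to 1673 to 2362 in Cre+ pull-downs and 1216 to 1610 in Cre- pull-downs, against 2481 to 4227 in inputs. In Cre- 2 of 7 tested were lower, Pmp22 (-1.71) and Fabp7 (-3.09), and S100b was higher (0.69), while 0 of 5 passed in Cre+. The enrichment of S100b was lower in Cre+ than in Cre- (-1.65, FDR 0.0394), as 1 of 5 glial markers. Between the pull-downs 1 of 5 glial markers was lower in Cre+ and 1 higher, beside 9.59% and 13.6% of all genes.

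The 4 fibroblast markers listed in both tables summed to 69.7 to 78.6 in Cre+ pull-downs and to 24.2, 26.7 and 81.1 in Cre- pull-downs, against 63.5 to 99.1 in inputs. The 2 of 6 macrophage markers summed to 5.06 to 115 over all libraries. The 4 endothelial markers summed to 104, 117 and 437 in the Cre+ pull-downs, all above the Cre+ inputs (49.7 to 85.9). Their median log2 difference in Cre+ was 1.93, and 1 of 4 passed, Tek (3.98, FDR 0.0837). Against the Cre- pull-downs 3 of these 4 markers were higher in Cre+ pull-downs, as were 13.6% of all genes. Of the fibroblast markers, Col1a1 was lower in Cre- pull-downs than in their inputs (-1.34, FDR 0.0387). It was also 1 of 4 higher in Cre+ than in Cre- pull-downs (2.07, FDR 0.0472), beside 13.6% of all genes. None of the 4 proliferation markers passed the filter on low expression. The part of cell composition in the tubulin results was not tested.

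Genes that fold tubulin were read from lists chosen for this family, and their counts stand beside 2.59% of all genes lower in Cre+ and 11.1% in Cre-. Of the 8 CCT chaperonin subunits, 3 were lower in Cre+, Tcp1 (-1.12, FDR 0.0636), Cct7 (-1.27, FDR 0.0871) and Cct2 (-1.52, FDR 0.0969), with a list median of -1.18. In Cre- 1 of 8 was lower, Cct4 (-0.74, FDR 0.0111), with a median of -0.06, and Cct7 differed between both enrichments (-1.43, FDR 0.0739). Of the 6 prefoldin subunits the same 2, Pfdn1 and Pfdn5, were lower in each genotype, by log2 differences of -4.01 and -3.11 in Cre+ and -1.94 and -0.82 in Cre-. Tbcb, a cofactor that binds alpha tubulin, was 1 of 6 folding cofactors lower in Cre+ (-2.11, FDR 0.0911), 0 of 7 passed in Cre-, and its enrichment differed between genotypes (-2.05, FDR 0.0992). No gene of these 3 lists passed as higher in either genotype, where 5.39% of all genes did in Cre+ and 13.0% in Cre-. Of the 3 genes of the autoregulation pathway, none passed in either genotype. Ttc5 stood at -1.59 (SE 0.74, FDR 0.230) in Cre+ and -0.20 (SE 0.43, FDR 0.788) in Cre-. Scaper went the other way in Cre+ (1.44, SE 0.55, FDR 0.156) and stood at -0.20 (SE 0.18, FDR 0.502) in Cre-. Cnot11 was at -1.27 (SE 0.91, FDR 0.415) and -0.14 (SE 0.26, FDR 0.746). Against the Cre- pull-downs, Scaper was 1 of 3 higher in Cre+ pull-downs (1.53, FDR 0.0337), where 13.6% of all genes were higher.

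Counts for the genes that modify tubulin tails stand beside the same shares of all genes, 13.0% higher and 11.1% lower in Cre- and 5.39% and 2.59% in Cre+. Ttl, the ligase that restores the terminal tyrosine of alpha tubulin, was 1 of 3 tested genes of this cycle to pass in Cre- (0.39, FDR 0.0904), and 0 of 3 passed in Cre+. Among 7 glutamylases and glycylases tested, Ttll7 (0.88, FDR 0.00237) and Ttll5 (0.54, FDR 0.0425) were higher and Ttll3 lower (-1.62, FDR 0.0198) in Cre-, and 0 of 7 passed in Cre+. The enrichment of Ttll3 was the one of these to differ between genotypes (2.59, FDR 0.0810). Agbl5, a deglutamylase, was 1 of 4 lower in Cre- (-1.05, FDR 0.0397), and Sirt2, which deacetylates alpha tubulin, 1 of 3 (-0.46, FDR 0.0923). In the gamma tubulin ring complex 1 of 8 was higher in Cre-, Tubgcp2 (0.78, FDR 0.0637), a share near that of all genes, and 0 of 5 passed in Cre+.

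Of 10 other tubulin genes, 3 were tested. Tubb4a, a beta tubulin of oligodendrocytes and some neurons, read 718, 620 and 593 in Cre+ inputs and 189, 468 and 552 in pull-downs, at a log2 difference of -0.69 (SE 0.37, FDR 0.286). Its Cre- libraries overlapped (0.05, SE 0.20, FDR 0.895). Per kb it stood at 289 ± 29.6 (SD, n = 3) in Cre+ inputs, above every beta tubulin among the 10 members there, and it is in none of the sums and shares above. With Tubb4a added to the beta sum, the log2 ratio of pull-down to input was -0.82 in Cre+ and -0.18 in Cre-, and the alpha to beta ratio in Cre- was 1.12 to 1.25 in inputs and 1.23 to 1.38 in pull-downs, which overlapped. The share differences in Cre- then were 4.48 points for Tubb2a, -3.53 for Tubb2b and 4.03 for Tubb6. Tubg2, a gamma tubulin, was lower in Cre- (-0.72, SE 0.26, FDR 0.0865).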

How the data were processed

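RNA of HA pull-downs and inputs of cultured DRG neurons was sequenced from 3 samples per group, grouped by the genotype and fraction in their labels. The columns of Cre+ libraries were assigned as a group from the table their labels name, so their numbers only tell libraries apart. The authors aligned reads to mm10 with STAR, as the study's methods state, and deposited the count of uniquely mapped fragments per gene (HTSeq, refFlat). The submitters' processing notes also name CASAVA 1.8.2. The mean FPKM per gene was deposited as the authors computed it. The authors' own fold changes, p-values and FDR values, and 18 further columns per sample, were not used.

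Counts of genes past a mean FPKM of 1 were compared with edgeR 4.0.16 in R 4.3.3 (TMM, glmQLFit, glmQLFTest), in the 6 libraries of each genotype and, for differences between genotypes, in all 12. Calls needed a Benjamini-Hochberg FDR below 0.1 over all genes tested. The standard error was taken as the log2 difference over the square root of F. The 12-library levels used the 8954 genes whose mean FPKM over both tables was above 1. Per-kb levels used the longest coding GENCODE M21 transcript, and identities came from Biopython 1.88 alignments. All named lists were given, mostly with up to 3 genes each with the smallest FDR and in places with more. Members and lists were chosen with earlier results of these data known. The scripts were tested on simulated data. Alternatives were DESeq2 1.42.0, other filters, scalings, thresholds, edgeR's exact test, a 12-library fit, a replicate block in Cre-, each library left out and, added after seeing the data, omission of Rn45s and Map1b, Tubb4a in the beta sum, division by unshared windows, and each pull-down left out of the direct comparison of pull-downs.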

Additional observations from a re-analysis of the deposited data

Results flagged for a closer look

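The enrichment of Tuba1b differed between genotypes by a test of the difference itself, at a log2 difference of enrichment of -1.40 (Cre+ minus Cre-, SE 0.34, FDR 0.0639, 12 libraries). All 3 pull-downs labelled Cre+ lay below all 3 Cre+ inputs, and all 3 pull-downs labelled Cre- lay above all 3 Cre- inputs. Of 18 alternative fits, 12 kept the call at an FDR below 0.1, with an FDR from 0.00947 to 0.187 over all of them. Tuba1b shared 83.1% of its 50-base windows with other transcripts, and the part of this in the result was not tested.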

How the results depend on the processing

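Tubb2b and Tubb5 in Cre- passed at an FDR below 0.1 in all 15 alternative fits, and Tubb5 missed the 2-fold limit. The 2 members lower in Cre+ became 4 with upper-quartile scaling, 6 with library size alone (these scalings moved the median of all genes from 0.076 to -0.12 and -0.36) and 6 with all 12 libraries in one fit, and 1 at an FDR below 0.05, with a 2-fold limit or without Rn45s and Map1b. The 2 members higher in Cre- became 0 with library size alone (median of all genes from -0.04 to -0.27), at an FDR below 0.05, with a 2-fold limit and in the 12-library fit, and the 3 lower became 1 with a 2-fold limit, 2 in the 12-library fit, 2 at an FDR below 0.05 and 4 with library size alone (Tubb3 at -0.59, FDR 0.0633). The 12-library fit shared its dispersion per gene over groups that differed in spread, and the part of this in its counts was not tested. For the difference of enrichments, DESeq2 called 1 higher member, and 0 were lower at an FDR below 0.05. The summed alpha level in Cre+ moved to -1.33 with library size alone. Leaving out single libraries gave 0 to 3 lower members in Cre+, 0 to 3 higher in Cre-, and 0 to 1 higher and 0 to 2 lower for the difference. Reversed signs, all among differences that did not pass, were Tuba4a in Cre+ (-0.083 upper quartile, -0.33 library size) and Tubb2a in Cre- (-0.047 library size), and without single libraries Tuba4a in Cre+ (-0.056 to 0.28), Tubb2b in Cre+ (-0.93 to 0.17), Tubb6 in Cre+ (-0.26 to 0.028), Tuba1a in Cre- (-0.26 to 0.094) and the difference of Tuba1c (-0.26 to 0.19). The cause was not tested. In Cre- the same-numbered pull-downs and inputs correlated at 0.067, 0.028 and 0.124 in their deviations, and those with different numbers at -0.110 to 0.025. Each library thus correlated best with its own number, a hint that equal numbers share a lysate, but the values were too weak to decide it. The main tests took the libraries as unpaired. The replicate block left 2 higher and 3 lower members, with an FDR of 0.0494 for Tuba1b, 0.0541 for Tubb6 and 0.0346 for Tuba1c. With 3 libraries per group, differences that missed the threshold are not shown to be absent.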
